A study of Rattus norvegicus with 6 samples.

Results

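The genes of cholesterol and fatty acid synthesis were followed in RNA-seq of crushed and intact sciatic nerves of the rat. The group was fixed as 38 gene symbols that cover the enzymes that build cholesterol from acetyl-CoA, the enzymes that build, lengthen and desaturate fatty acids, the SREBP factors that control both routes with their partners, the LXR factors with 2 cholesterol exporters, and 2 proteins that move cholesterol inside the cell. Every row of the deposited gene table with a member's symbol was taken, which gave 38 rows of the 30957 genes in the table. Of the 38 symbols 37 were found, since Elovl6 has 2 rows and no row is named Scd. RefSeq lists Scd1 as another name of Scd, and the row named Scd1 is described beside the members.

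The samples were 3 crushed sciatic nerves (injured) and 3 intact nerves of the opposite side (normal), all from Sprague Dawley rats. According to the methods the rats were adult males and the crushed nerves were the proximal stumps taken 4 days postinjury; the labels give no time. The labels name no genetic change and no drug in either group. An intact nerve of an operated animal is not a nerve of an unoperated one, and the labels do not say which crushed and intact nerves came from the same rat. In each nerve the authors counted reads per gene, with totals of 24844371 to 27139360, and 12393 genes had enough reads to be tested. The labels describe nerve tissue and no sorted cells, so that fewer cells of a type and less RNA per cell cannot be told apart.

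The labelled tissue was compared with its defining markers. Of 11 Schwann cell and myelin genes, 6 had at most 5 counts in every nerve, among them Mbp (a main myelin protein, 0 or 1 count), Mag (0 in all 6 nerves) and Sox10 (0 or 1 count). The other 5 were detected, Pmp22 with 821 to 968 counts and Prx with 590 to 690. Main defining markers of a peripheral nerve thus had few or no counts in both groups. Whether the libraries hold the labelled tissue, or whether reads of these genes are missing from the table, cannot be told from these files, and every value below carries that doubt. Of 8 macrophage and leukocyte genes 5 had at most 5 counts in every nerve, Ptprc, Adgre1 and Cd163 being at 0. This list summed to 1.93 to 3.11 CPM in intact and 2.42 to 3.15 CPM in crushed nerves. Within it Cd68 and Csf1r were not called (log2 fold changes 0.21 and 0.06, adjusted p = 0.732 and 0.940 by edgeR). Of 5 fibroblast genes Col1a2, Dcn and Lum were at 0, whereas Pdgfra had 1114 to 1525 counts and Col1a1 293 to 537. These 2 detected genes went in opposite directions. Col1a1 was lower in the crushed nerves (log2 fold change -0.69, adjusted p = 0.000662 by edgeR). Pdgfra had a positive log2 fold change of 0.19 and was not called (adjusted p = 0.166 by edgeR). The fibroblast list summed to 63.6 to 70.7 CPM in intact and 62.5 to 69.1 CPM in crushed nerves. Of 5 adipocyte genes, which bear most directly on fatty acid synthesis, 4 had at most 5 counts, Lep and Fabp4 were at 0, and the list summed to 0.0395 to 0.283 normalized CPM (the count divided by the library's effective size) in intact and 0.0399 to 0.110 in crushed nerves. Proliferation genes were high, Mki67 having 37037 to 43837 counts, with a summed level of 2851 to 3066 CPM in intact and 2722 to 2855 CPM in crushed nerves. The summed Schwann cell and myelin list lay at 68.0 to 72.3 CPM in intact and 63.6 to 64.8 CPM in crushed nerves, and within it Erbb3 was lower in the crushed nerves, with 89 to 94 counts beside 130 to 135 (log2 fold change -0.59, adjusted p = 0.0222 by edgeR). Of 4 axon genes Nefm was at 0 and Nefl and Prph had at most 2 counts, so that their sum of 26.1 to 32.4 CPM in intact and 32.7 to 36.7 CPM in crushed nerves was almost wholly Nefh. The part of these differences in the results was not tested.

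Cholesterol is made from acetyl-CoA in a long chain of steps, first along the mevalonate route to farnesyl diphosphate and then through squalene and lanosterol. The transcription factors SREBP1 and SREBP2 (genes Srebf1 and Srebf2) turn on most genes of the chain and of fatty acid synthesis. When sterols are plentiful the Insig proteins hold SREBP and its escort Scap in the endoplasmic reticulum, and when sterols run low SREBP is cut by proteases and moves to the nucleus. LXR factors respond to oxysterols and raise the export pumps Abca1 and Abcg1. In nerve, Schwann cells make much of the cholesterol and fatty acid of myelin themselves, and macrophages take up and export myelin lipid after injury.

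SREBP acts on promoters together with the factors NF-Y and Sp1, and the promoters of 4 members are shown because they hold the NF-Y box and belong to genes described below. Hmgcs1 makes the HMG-CoA of the mevalonate route, Msmo1 had the highest level of the sterol enzymes, Insig1 is the SREBP target that feeds back on SREBP, and Fads1 had the highest level of all members. Each line gives the 200 bases before the RefSeq start of the gene, 5′ to 3′ on the strand of the gene, in the GRCr8 assembly. Capitals mark the NF-Y box CCAAT or, on the other strand, ATTGG.
Hmgcs1 (chr2:53382104-53382303, plus strand): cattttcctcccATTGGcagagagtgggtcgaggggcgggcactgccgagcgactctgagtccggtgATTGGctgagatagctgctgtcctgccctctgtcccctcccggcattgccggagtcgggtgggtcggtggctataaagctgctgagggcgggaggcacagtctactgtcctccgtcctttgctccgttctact
Msmo1 (chr16:29746913-29747112, plus strand): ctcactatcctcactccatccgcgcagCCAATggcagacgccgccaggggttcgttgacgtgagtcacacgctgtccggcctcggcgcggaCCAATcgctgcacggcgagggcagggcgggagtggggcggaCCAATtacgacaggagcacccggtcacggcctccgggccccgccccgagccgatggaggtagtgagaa
Insig1 (chr4:8057770-8057969, minus strand): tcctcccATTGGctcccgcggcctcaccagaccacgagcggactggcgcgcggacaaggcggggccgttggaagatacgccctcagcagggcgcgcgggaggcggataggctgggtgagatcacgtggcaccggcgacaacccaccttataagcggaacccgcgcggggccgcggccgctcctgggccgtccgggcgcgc
Fads1 (chr1:216252492-216252691, plus strand): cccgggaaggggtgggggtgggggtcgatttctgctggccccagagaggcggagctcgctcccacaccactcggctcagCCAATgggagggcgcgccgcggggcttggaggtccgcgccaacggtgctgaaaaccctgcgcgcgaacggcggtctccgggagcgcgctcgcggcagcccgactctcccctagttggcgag

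Of the 38 symbols 30 had a promoter in the RefSeq table, which holds 250 bases before and 50 after the start, and Srebf1 had 2 of them. Pmvk, Fdft1, Sqle, Abcg1, Fasn, Acaca, Elovl6 and Stard4 had none. The letters CCAAT on either strand were present in 19 of these 30 genes, and in 37.5% of all 33469 promoters. They were present in 12 of the 15 cholesterol enzymes with a promoter, with 5 boxes each in Mvk and Nsdhl, and in 3 of the 6 fatty acid genes. The Sp1 box GGGCGG was present in 22 of the 30 genes and in 33.1% of all promoters, and in no member's promoter did it share bases with CCAAT. The core of the sterol regulatory element, searched as TCACNCCAC on both strands, was present in 1.12% of all promoters and in 0 of the 30 genes; that says only that these letters were not in these windows. These matches are a description of letters and not of binding.

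Between crushed and intact nerves 1 of the 38 rows was called higher and 0 lower at an adjusted p under 0.05 (edgeR's quasi-likelihood test, adjusted over all 12393 genes). The called gene was Abcg1, the LXR target that exports cholesterol. Over all genes tested 1.47% were called higher and 1.65% lower, so that 1 of 38 is a share near the background. DESeq2 also called 1 row higher and 0 lower. By the limits of the methods, an absolute log2 fold change above 1 and an unadjusted p under 0.001, 0 of 38 rows and 0.282% of all genes were called. All 38 rows passed the filter on low counts and had 63 to 31347 counts per nerve.

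The fold changes of the members were small. Of the 38 rows 22 had a positive and 16 a negative log2 fold change, the median was 0.017, and the median of the absolute log2 fold change was 0.046, beside 0.082 over all genes tested. An unadjusted p under 0.05 was found in 8 rows, 4 higher and 4 lower, which is 21.1% of the rows beside 16.2% of all genes. The crushed nerves lay wholly on one side of the intact nerves in 11 rows, 4 higher and 7 lower, which is 28.9% beside 23.0% of all genes. The 95% interval of the fold change stayed within 1.25-fold in either direction for 31 of the 38 rows, so that for these genes a larger change was outside the interval. The 7 rows whose interval reached past 1.25-fold were Pmvk, Tm7sf2, Abcg1, Nr1h3, both rows of Elovl6 and Fads2.

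**Figure D1:**
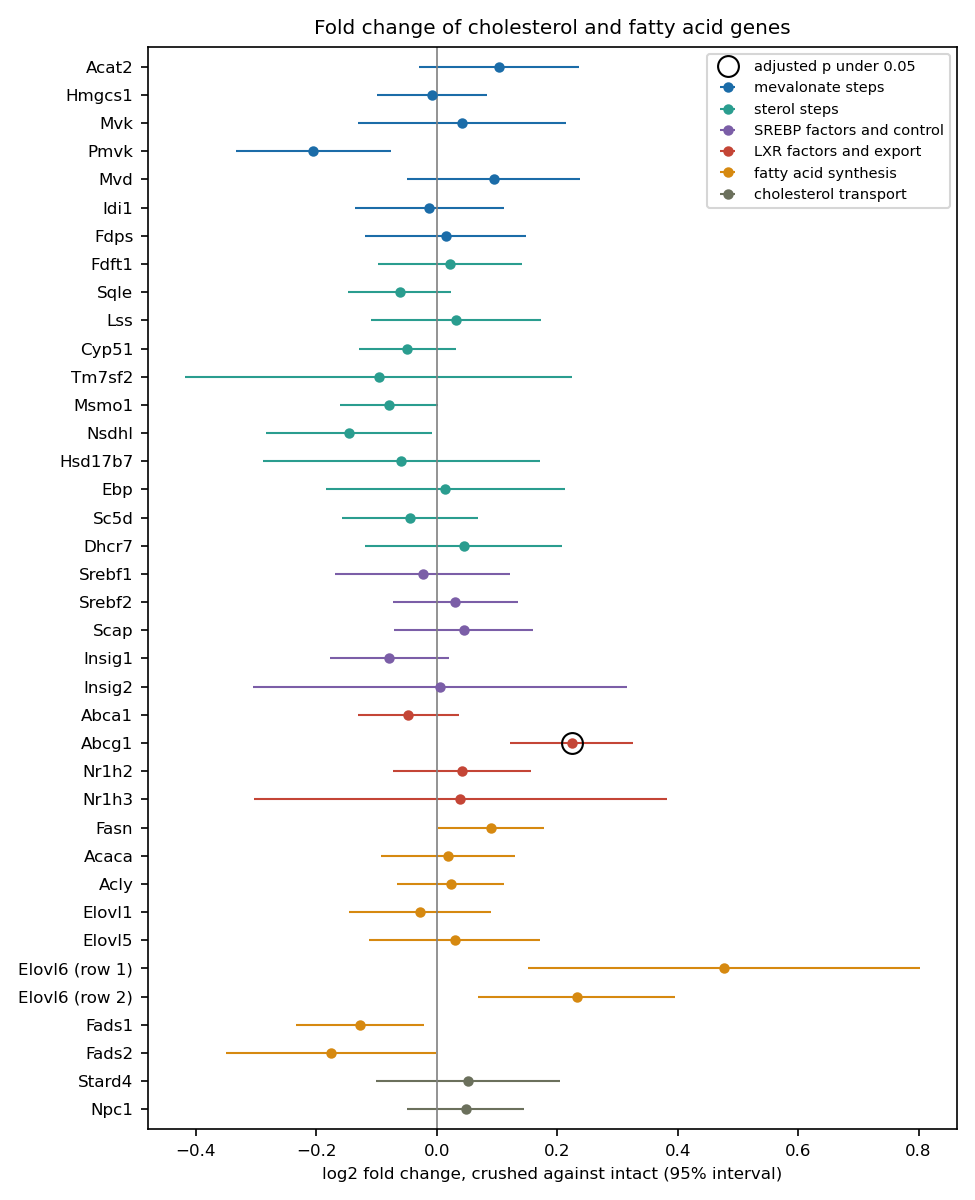
Log2 fold change of each member row, crushed against intact nerves (x axis), with its 95% interval from edgeR, grouped by role; the ring marks an adjusted p under 0.05. Most intervals include 0, Abcg1 at 0.22 carries the only ring, and row 1 of Elovl6 lies farthest to the right at 0.48 with a wide interval.

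Abcg1 exports cholesterol to high-density lipoprotein and is among the genes most directly raised by LXR. The gene had 2524, 2646 and 2550 counts in intact nerves 1 to 3 and 3283, 3036 and 3052 in crushed nerves 1 to 3, or 101 ± 1.71 and 118 ± 5.36 normalized CPM (mean ± SD, n = 3 each). All 3 crushed nerves were above all 3 intact nerves. The log2 fold change was 0.22 (95% interval 0.12 to 0.33), a rise of 16.8%, with an adjusted p of 0.0268 in edgeR's quasi-likelihood test. The row lies on chromosome 20 (chr20:9743269-9840489 in the table's coordinates). With single nerves left out, edgeR kept the call in 3 of 6 fits, with adjusted p-values of 0.0309, 0.0468 and 0.0365. The call was lost without intact nerve 2 (log2 fold change 0.22, adjusted p = 0.0820), crushed nerve 1 (0.21, adjusted p = 0.138) and crushed nerve 3 (0.20, adjusted p = 0.124). Limma's test on the FPKM values also did not call it (0.24, adjusted p = 0.0556).

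Abca1, the other LXR-driven exporter, which passes cholesterol to apolipoprotein A-I, was not called. Its levels were 231, 233 and 235 normalized CPM in intact nerves 1 to 3 and 230, 227 and 220 in crushed nerves 1 to 3, a log2 fold change of -0.05 (95% interval -0.13 to 0.04) with an adjusted p of 0.587. The crushed nerves lay just below the intact ones, without reaching the threshold. Per length, Abca1 had 1.04, 1.04 and 1.02 times the FPKM of Abcg1 in the intact nerves and 0.858, 0.910 and 0.809 times in the crushed nerves, so that the order of the pair was reversed in the crushed nerves. The ratio is given as a description, since the pair was set side by side after the call of Abcg1. Of the LXR factors, Nr1h2 (LXR beta) had 0.04 as its log2 fold change (adjusted p = 0.743) and Nr1h3 (LXR alpha) also 0.04 (adjusted p = 0.931). Nr1h3 had 63 to 79 counts per nerve and an interval from -0.30 to 0.38, which leaves changes of that size undecided. Nr1h2 was 19.8 to 26.1 times Nr1h3 in FPKM in the 6 nerves.

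**Figure D2:**
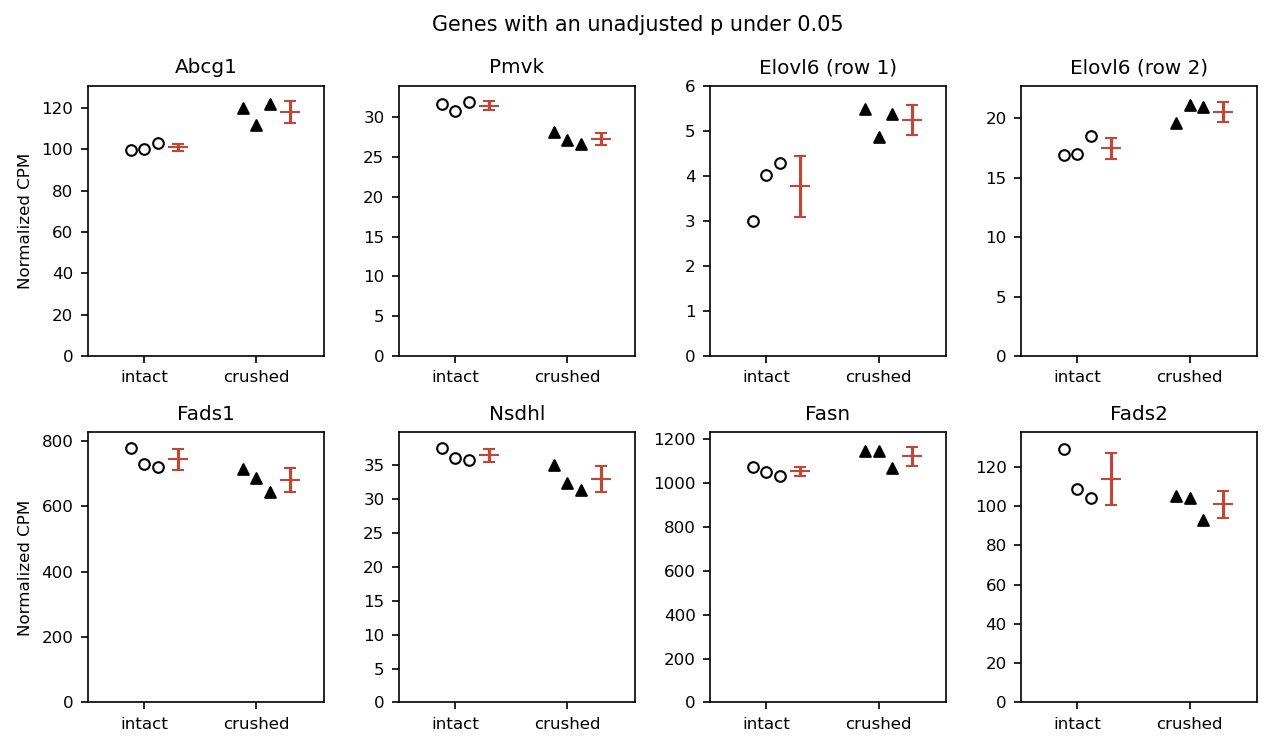
Normalized CPM (y axis, from 0) of the 8 member rows with an unadjusted p under 0.05 in each intact (open circle) and crushed (black triangle) nerve, with the group mean and SD in red. Abcg1, Pmvk, both rows of Elovl6, Fads1 and Nsdhl separate the groups, and Fasn and Fads2 do not.

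The SREBP factors and the proteins that hold them gave 0 calls in 5 genes by edgeR, DESeq2 and limma alike, with 0 of 5 at an unadjusted p under 0.05, and the levels of crushed and intact nerves overlapped in all 5. Srebf2, the main factor for cholesterol genes, had 399, 362 and 357 normalized CPM in intact nerves 1 to 3 and 387, 375 and 381 in crushed nerves 1 to 3. The crushed nerves lay inside the range of the intact ones. Its log2 fold change was 0.03 (95% interval -0.07 to 0.13) with an adjusted p of 0.796. Srebf1, the main factor for fatty acid genes, had 137, 157 and 146 normalized CPM in intact nerves 1 to 3 and 133, 156 and 144 in crushed nerves 1 to 3, a log2 fold change of -0.02 (adjusted p = 0.899). Intact and crushed nerves spread alike in Srebf1, with an SD of 10.3 and 11.6. Insig1 is itself raised by SREBP and so is often read as a gauge of its activity. Insig1 had 116, 124 and 119 normalized CPM in intact nerves 1 to 3 and 117, 112 and 111 in crushed nerves 1 to 3, and its log2 fold change of -0.08 (95% interval -0.18 to 0.02) did not pass the threshold (adjusted p = 0.430). The overlap came from crushed nerve 1, which lay above intact nerve 1. Scap, the escort of SREBP, and Insig2 had log2 fold changes of 0.05 and 0.006 (adjusted p of 0.722 and 0.988). In FPKM Srebf2 was 1.67 to 2.12 times Srebf1, and Insig1 was 3.84 to 5.12 times Insig2, with no separation of crushed from intact nerves in either ratio.

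The mevalonate route from acetyl-CoA to farnesyl diphosphate had 0 calls in 7 genes by edgeR, DESeq2 and limma, with 1 gene, Pmvk, at an unadjusted p under 0.05. Hmgcs1, the synthase that makes HMG-CoA, had 149, 143 and 144 normalized CPM in intact nerves 1 to 3 and 141, 149 and 143 in crushed nerves 1 to 3. The groups covered the same range, and the log2 fold change was -0.0081 (95% interval -0.10 to 0.08, adjusted p = 0.949). Pmvk, the kinase that makes mevalonate diphosphate, had the most negative fold change of all members. It lay at 31.7, 30.8 and 31.9 normalized CPM in intact nerves 1 to 3 and 28.2, 27.1 and 26.7 in crushed nerves 1 to 3, with no overlap, and its log2 fold change of -0.20 (95% interval -0.33 to -0.08) had an adjusted p of 0.101. Acat2, which joins acetyl-CoA into acetoacetyl-CoA, was at 40.6 to 42.6 normalized CPM in the intact and 42.7 to 48.0 in the crushed nerves (log2 fold change 0.10, adjusted p = 0.433). Mvk, Mvd, Idi1 and Fdps, which make mevalonate phosphate, isopentenyl diphosphate, its isomer and farnesyl diphosphate, had log2 fold changes of 0.04, 0.09, -0.01 and 0.02 with overlapping groups. The 7 genes together summed to 685 ± 16.03 normalized CPM in the intact and 687 ± 23.6 in the crushed nerves (mean ± SD, n = 3).

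The 11 enzymes from squalene to cholesterol also gave 0 calls by edgeR, DESeq2 and limma, with 1 gene, Nsdhl, at an unadjusted p under 0.05. Of these 7 had a negative and 4 a positive log2 fold change, with a median of -0.05. Sqle, the squalene epoxidase that controls the flow into the sterol branch, had 149, 145 and 144 normalized CPM in intact nerves 1 to 3 and 142, 140 and 138 in crushed nerves 1 to 3. The crushed nerves were all lower, but by a log2 fold change of -0.06 (95% interval -0.15 to 0.02) and with an adjusted p of 0.478. The groups likewise did not overlap, all lower in the crushed nerves, for Cyp51 (lanosterol demethylase, -0.05, adjusted p = 0.552), Msmo1 (C4 methyl oxidase, -0.08, adjusted p = 0.324) and Nsdhl (C4 decarboxylase, -0.15, adjusted p = 0.278). These make 4 of 11 genes without overlap, beside the 23.0% of all genes, and none passed the threshold. Msmo1 lay between 319 and 348 normalized CPM over the 6 nerves. Fdft1 (squalene synthase), Lss (lanosterol synthase), Ebp (sterol isomerase) and Dhcr7 (the last reductase of one branch) had log2 fold changes of 0.02, 0.03, 0.01 and 0.04. Sc5d (the C5 desaturase), Hsd17b7 (the C3 ketoreductase) and Tm7sf2 (the C14 reductase) had -0.04, -0.06 and -0.10, and their groups overlapped. Tm7sf2 had 212 to 293 counts per nerve and the widest interval of these enzymes, from -0.42 to 0.23.

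The 18 cholesterol enzymes together summed to 1780 ± 30.1 normalized CPM in the intact nerves and 1746 ± 43.7 in the crushed nerves (mean ± SD, n = 3), and the sums overlapped. For 16 of the 18 the 95% interval stayed within 1.25-fold, Pmvk and Tm7sf2 being the others.

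**Figure D3:**
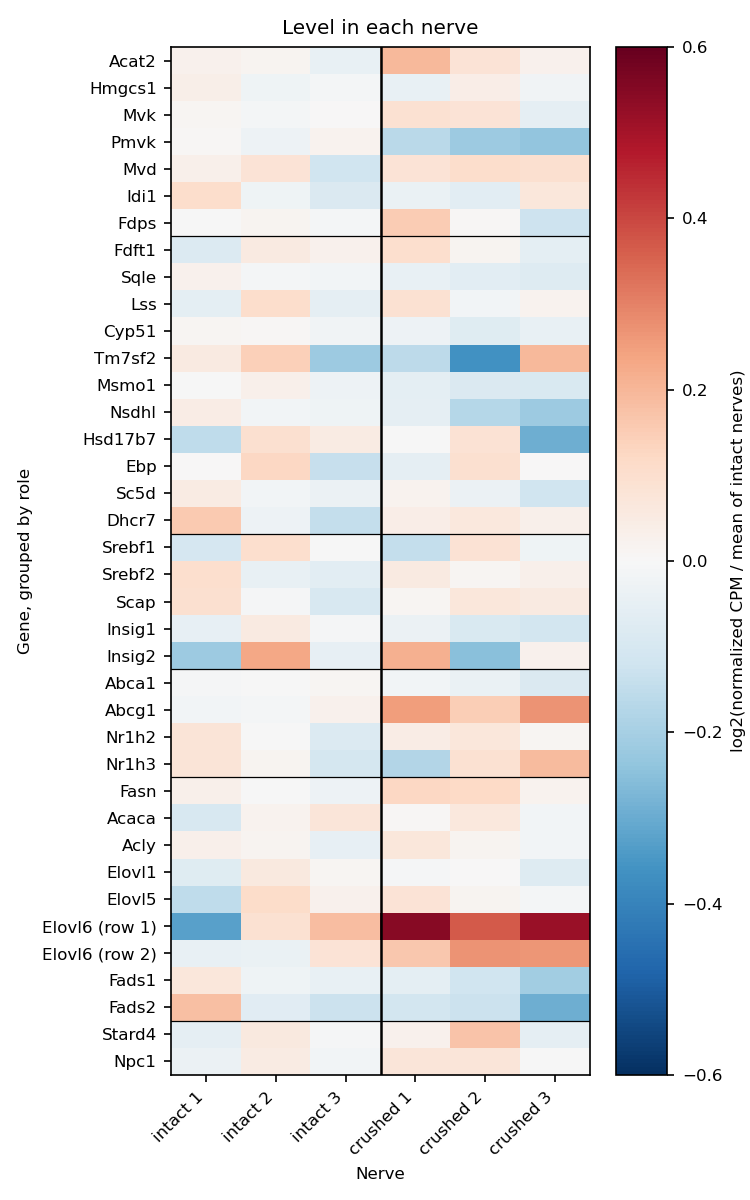
Level of each member row (y axis, grouped by role with thin lines) in each of the 6 nerves (x axis), coloured as the log2 ratio of its normalized CPM to the mean of the intact nerves. Row 1 of Elovl6 reaches 0.54 in a crushed nerve, Abcg1 is raised in all 3 crushed nerves, and most other rows stay near 0 in both groups.

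Fatty acid synthesis and modification had 0 calls in 9 rows by edgeR, DESeq2 and limma, and 5 of the 9 had an unadjusted p under 0.05, of which 3 were higher and 2 lower, beside 16.2% of all genes; both rows of Elovl6 are among the 3. Fasn, the synthase that builds palmitate, was the most counted member. It had 1075, 1052 and 1032 normalized CPM in intact nerves 1 to 3 and 1148, 1145 and 1070 in crushed nerves 1 to 3, with crushed nerve 3 just below intact nerve 1. Its log2 fold change was 0.09 (95% interval 0.003 to 0.18) with an adjusted p of 0.289. Acly, which makes the acetyl-CoA, and Acaca, which makes the malonyl-CoA that Fasn uses, had log2 fold changes of 0.02 and 0.02 (adjusted p of 0.821 and 0.892), with overlapping groups. The row named Scd1, a desaturase that makes oleate, had 84.8, 83.8 and 86.2 normalized CPM in intact nerves 1 to 3 and 86.6, 86.7 and 78.4 in crushed nerves 1 to 3 (log2 fold change -0.02, adjusted p = 0.905). The intact nerves lay inside the range of the crushed ones.

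Elovl6, which lengthens palmitate to stearate, appears in 2 rows of the table that lie 79169 bases apart on chromosome 2, whereas RefSeq lists 1 gene of that name. Row 1 (chr2:234189105-234296145) had 76, 106 and 106 counts in intact nerves 1 to 3 and 150, 132 and 135 in crushed nerves 1 to 3, a log2 fold change of 0.48 with an adjusted p of 0.127. Row 2 (chr2:234375315-234483149) had 429, 449 and 459 counts in intact nerves 1 to 3 and 535, 573 and 526 in crushed nerves 1 to 3, a log2 fold change of 0.23 with an adjusted p of 0.140. Both rows were higher in all 3 crushed nerves and neither passed the threshold. With the rows summed, a step chosen after the values were seen, the log2 fold change was 0.28 (95% interval 0.12 to 0.44) with an adjusted p of 0.0659. How reads were divided between the rows is not given in the sources used here. Elovl1 and Elovl5, which lengthen very long saturated and polyunsaturated chains, had log2 fold changes of -0.03 and 0.03 with overlapping groups.

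The desaturases Fads1 (delta-5) and Fads2 (delta-6), which act in turn on polyunsaturated fatty acids and whose rows lie 81549 bases apart, were lower on average in the crushed nerves. Fads1 had 779, 730 and 722 normalized CPM in intact nerves 1 to 3 and 714, 685 and 643 in crushed nerves 1 to 3, without overlap, and its log2 fold change was -0.13 (adjusted p = 0.215). Fads2 had 129, 108 and 104 in intact nerves 1 to 3 and 105, 104 and 93.0 in crushed nerves 1 to 3, with overlap, and its log2 fold change was -0.18 (adjusted p = 0.306). Neither passed the threshold, and for Fads2 intact nerve 1 stood above the other 5. The log2 fold change of Fads2 was -0.07 (adjusted p = 0.626) without intact nerve 1 and ranged from -0.23 to -0.07 over the fits that left out single nerves. Together the 9 rows of fatty acid synthesis summed to 2627 ± 57.6 normalized CPM in the intact and 2633 ± 102 in the crushed nerves. The proteins that move cholesterol inside the cell, Stard4 (a sterol carrier of the cytosol) and Npc1 (which lets cholesterol leave the lysosome), had log2 fold changes of 0.05 and 0.05 (adjusted p of 0.765 and 0.639), and their groups overlapped.

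Levels were compared between genes as the deposited FPKM values, which are per length. The mean over the 6 nerves ran from 208 FPKM for Fads1 down to 1.70 for Nr1h3, a range of 123-fold. Fads1, Msmo1 at 179 and Fasn at 119 came first, and each was separated from the next. Elovl5 (82.4), Fads2 (78.9), Cyp51 (74.9), Acly (74.7) and Fdps (74.5) followed, and neighbours among these 5 overlapped over the nerves. Srebf2 stood at 61.6, above every other regulator, with Insig1 at 48.1, Nr1h2 at 37.9 and Srebf1 at 32.8. Hmgcs1 (44.97), Abcg1 (23.6) and Abca1 (22.2) lay in the middle of the order, and Lss (5.69), Hsd17b7 (5.42) and Tm7sf2 (4.29) near its lower end. Of the 37 pairs of neighbours in the order 26 overlapped, so that most of the fine order is not resolved by these nerves. Scd2, a desaturase outside the group, was above all members with 568 to 646 FPKM, 30.8 to 34.7 times the row named Scd1, and its log2 fold change was -0.11 (adjusted p = 0.194).

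**Figure D4:**
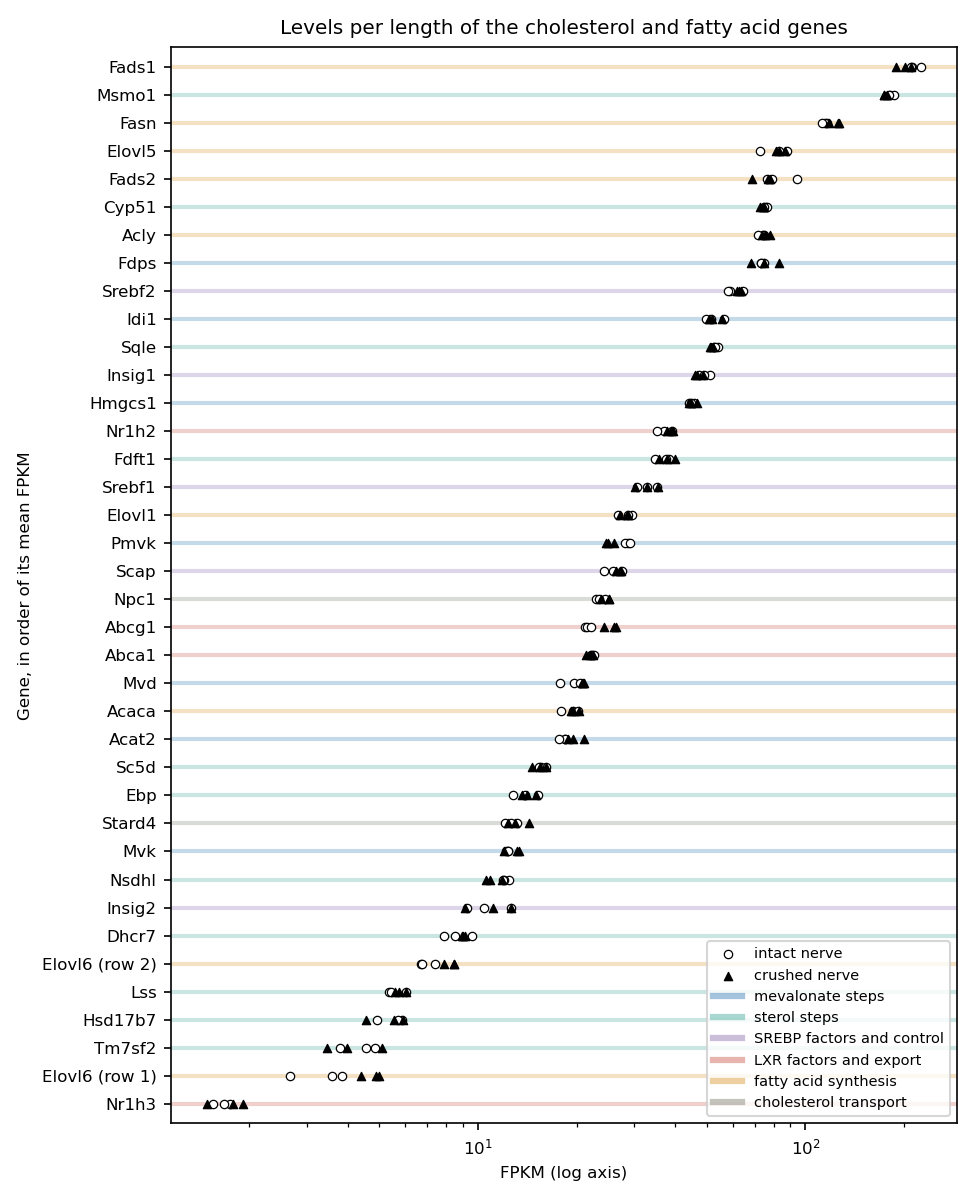
FPKM of each member row on a log axis (x axis) in the 3 intact nerves (open circles) and 3 crushed nerves (black triangles), ordered by the mean; coloured lines give the role. The order runs from Fads1 at 208 to Nr1h3 at 1.70, and circles and triangles lie close together in most rows.

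The other lipid genes were taken from a list of 35 that includes the SREBP proteases, the acyl-CoA ligases and lipid receptors. Of these 30 passed the filter on low counts and 0 were called by edgeR's test, beside 1.47% higher and 1.65% lower of all genes. An unadjusted p under 0.05 was found in 6 of them, 2 higher and 4 lower, which is 20.0% beside 16.2% of all genes. The groups did not overlap in 8 of the 30, which is 26.7% beside 23.0% of all genes. DESeq2 called 1 of them, Tecr, the last reductase of fatty acid elongation, at an adjusted p of 0.0311 (log2 fold change -0.33 and adjusted p = 0.101 by edgeR). Mbtps2, the protease that frees SREBP from the membrane, had 58.3, 76.3 and 80.0 normalized CPM in intact nerves 1 to 3 and 84.3, 86.2 and 86.1 in crushed nerves 1 to 3, without overlap (log2 fold change 0.26, adjusted p = 0.202). Apoe, which carries cholesterol between cells of the nerve, had 6.13, 5.57 and 4.97 normalized CPM in the intact nerves. In the crushed nerves Apoe had 1.98, 5.67 and 1.80 (log2 fold change -0.81, adjusted p = 0.272), and crushed nerve 2 lay among the intact nerves.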

How the data were processed

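RNA from 3 crushed and 3 intact sciatic nerves was sequenced on an Illumina platform, and the authors deposited 1 table with a read count and an FPKM value per Ensembl rat gene and nerve. The submitters' processing notes name HISAT2, StringTie 1.3.0 and the build Rnor_6.0; the counting step and the annotation are not given in the sources used here, and the table names no build for its coordinates. The deposited counts were not normalized. The FPKM values had been scaled by the authors to gene length and to the library. The labels name a column kit for the RNA, whereas the methods describe TRIzol, rRNA removal and RNase R, which digests linear RNA. The names of all 12 value columns are sample titles, and 0 further value columns were found.

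Counts were tested with edgeR 4.0.16 in R 4.3.3 (filterByExpr, TMM factors from 0.991 to 1.01, quasi-likelihood test, two-sided, Benjamini-Hochberg adjustment over 12393 genes, no replicate block). Normalized CPM are counts scaled to a common library size with TMM factors; 95% intervals come from the same fit. The total per nerve was 24844371 to 27139360, at which 3 counts are 0.110 to 0.121 CPM; this covers counting error only. Per the design text the samples are 3 biological replicates, but no label ties a nerve to a rat. The edgeR p-values weigh the difference between the groups against the spread between these samples, which edgeR estimates with the help of all genes. Same-numbered crushed and intact nerves correlated by -0.0097 to 0.071, beside -0.062 to 0.069 for unlike numbers. With 3 nerves per group these values cannot show or exclude a pairing. The numbers were not used as pairs in the main fit, and a replicate block was fitted as an alternative. Replicate libraries differed by 3.38 to 12.3 chi-square per degree of freedom, more than sampling noise.

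Alternatives were DESeq2 1.42.0, no TMM factors, no filter, a replicate block, limma 3.58.1 on log2(FPKM + 0.1), each nerve left out, and an unadjusted p under 0.001 with no fold limit. Summing both Elovl6 rows was added after the data were seen. The calculation was tested on simulated data. The members, lists and named genes were chosen with earlier results of these data known. Values in each nerve were given by rule for called members and for Srebf1, Srebf2, Insig1, Hmgcs1, Sqle, Fasn, Scd and Abca1; those of other genes were added after their values were seen. Promoters were read from RefSeq (GRCr8), another build than the table's, and matched by symbol. Some genes of the lists are not reported here.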

Additional observations from a re-analysis of the deposited data

How the results depend on the processing

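The count of members called higher was 1 by edgeR and fell to 0 with limma on log2(FPKM + 0.1); with single nerves left out it ranged from 0 to 1. The counts called lower and called at the limits of the methods were 0 under all alternatives that give them. With the replicate block Abcg1 was still called, at an adjusted p of 0.0432 (log2 fold change 0.22), and no other call changed. Over the alternatives the adjusted p of Abcg1 lay between 0.00482 (DESeq2) and 0.138 (without crushed nerve 1), with a log2 fold change of 0.200 to 0.261 when nerves were left out. Of the 38 rows 23 kept the sign of their fold change in all 12 alternatives, and 15, none of them called, did not; their absolute log2 fold changes were at most 0.0965 as reported and at most 0.259 in any alternative. Hmgcs1 turned positive without TMM factors (0.00889) and in limma on FPKM (0.00861), as did Idi1 (0.00510 and 0.00613). Leaving out single nerves turned the sign of the log2 fold change of Hmgcs1 (-0.0317 to 0.0150), Idi1 (-0.0522 to 0.0484), Fdps (-0.0581 to 0.0802), Fdft1 (-0.0189 to 0.0607), Tm7sf2 (-0.259 to 0.0237), Hsd17b7 (-0.139 to 0.0429), Ebp (-0.0466 to 0.0835), Dhcr7 (-0.0186 to 0.134), Srebf1 (-0.0825 to 0.0334), Insig2 (-0.110 to 0.142), Nr1h3 (-0.0371 to 0.139), Acaca (-0.0223 to 0.0579), Elovl1 (-0.0577 to 0.00609), Elovl5 (-0.0347 to 0.0926) and Stard4 (-0.0116 to 0.10). The cause was not tested. Nr1h3, Tm7sf2 and Insig2, with few counts, had the widest intervals among uncalled genes beside row 1 of Elovl6.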
